A study of Homo sapiens with 9 samples.

Results

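The genes described here are 37 genes of the core cell cycle machinery: cyclins, cyclin-dependent kinases (CDKs), E2F and DP transcription factors, the retinoblastoma (RB) pocket proteins, the CDC25 phosphatases and WEE1-type kinases that set CDK1 activity, and the MuvB complex with its activators. They are named for their role in the cycle. These genes and the gene lists below were chosen with earlier results of these data known, so their counts of calls are descriptive. Each of the 37 symbols matched 1 of the 60675 Ensembl genes counted, and 36 passed the filter on low counts. CCNA1 did not.

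The cells were LNCaP:C4-2, a castration-resistant, enzalutamide-sensitive prostate cancer line derived from LNCaP. All 9 libraries came from cells that carried a lentiviral short hairpin RNA (shRNA) in a doxycycline-inducible pLKO-puro vector, had been selected with puromycin and were grown in charcoal-stripped serum. The groups were shScramble (a non-gene-targeting hairpin), shMETTL3 guide 2 and shMETTL3 guide 1 (2 hairpins against METTL3, the catalytic subunit of the RNA m6A methyltransferase), with 3 libraries each. Doxycycline was given at 1 μg/ml for 6 days, and the titles call every sample vehicle. The comparison asked how depletion of METTL3 altered basal gene expression. The labels name no clones and do not say that the 3 libraries of a group were separate cultures, so the p-values measure only the spread between these libraries. The study's methods describe stable clones selected with puromycin and do not say how many each group held. Differences between clones cannot be told apart from those of the hairpins.

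METTL3 itself was at 29.8, 31.7 and 33.0 CPM (counts scaled by library size with TMM factors) in shScramble, at 16.6, 16.5 and 15.8 CPM with guide 2, and at 29.4, 30.1 and 29.6 CPM in the libraries labelled guide 1. It fell with guide 2 (log2 fold change -0.95, SE 0.0687, edgeR adjusted p = 2.97e-12) and did not pass the test in the libraries labelled guide 1 (-0.08, SE 0.0633, edgeR adjusted p = 0.251), so those are named by their label throughout. Total counts ran from 21899501 to 30897639 per library. The guide 2 libraries held fewer detected genes (24884 to 26505) than shScramble (28459 to 29586) or the libraries labelled guide 1 (29193 to 29628). Prostate luminal markers were present, with 9 of 9 above the floor of 3 counts in every group and summed levels of 2221 to 2254 CPM in shScramble, 2415 to 2562 CPM with guide 2 and 1131 to 1159 CPM in the libraries labelled guide 1. The basal markers KRT5, KRT14 and TP63 were at or under the floor in every group. The sum of 4 fibroblast markers was 43.2 to 46.6, 37.1 to 40.5 and 19.2 to 25.8 CPM in the same order, with COL1A2 and DCN at the floor throughout. Summed over 3 endothelial markers, levels were 1.27 to 1.78, 2.87 to 3.49 and 0.632 to 1.2 CPM, with PECAM1 at the floor throughout, and leukocyte markers reached at most 0.55 CPM, with PTPRC and CD3E at the floor throughout. The luminal and fibroblast sums were lower in the libraries labelled guide 1 and the endothelial sum higher with guide 2, and their part in the results below was not tested. In shScramble 1 gene made up most of each of these sums: FOLH1 (1210 CPM), COL1A1 (43.4 CPM) and VWF (1.47 CPM). Of the luminal markers, KLK3 alone lay above 0 in the libraries labelled guide 1 (log2 fold change 0.15). With guide 2, KLK3 was lowered (-0.82), KLK2 (-0.36), KRT8 (-0.14) and KRT18 (-0.12) lay below 0, and the other luminal markers lay above 0. The fibroblast marker PDGFRB was raised with guide 2 (1.33), while COL1A1 was at -0.30.

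The cell cycle is driven by CDKs that are active only when bound to a cyclin. In G1, D cyclins with CDK4 or CDK6 and then E cyclins with CDK2 phosphorylate the pocket proteins RB1, RBL1 (p107) and RBL2 (p130), which releases E2F-DP dimers from repression and lets the genes of DNA replication be transcribed. A cyclins with CDK2 act in S phase, and B cyclins with CDK1, held in check by WEE1 and PKMYT1 and released by CDC25 phosphatases, bring about mitosis. The MuvB core (LIN9, LIN54) represses cell cycle genes with RBL2 and E2F4 in resting cells and activates the genes of G2 and mitosis with B-MYB (MYBL2) and FOXM1. In many prostate cancers this machinery is downstream of androgen signalling.

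E2F factors read a short sequence close to the start of their target genes, among them several E2F and RB family genes. RefSeq promoter windows (GRCh38.p14, 250 bases before to 50 after the gene start) were found for 27 of the 37 genes. The letters TTTGGCGC, TTTCGCGC, TTTCCCGC or TTTGCCGC, searched on both strands, stood in 7 of these 27 windows (25.9%), those of E2F1, E2F2, E2F3, TFDP1, RBL1, CDC25A and CDK1, against 3.33% of 27305 windows of the same length. The cell cycle homology region, searched as TTTGAA, stood in 5 of 27 (18.5%, against 15.4% of all windows), and CCAAT in 9 of 27 (33.3%, against 35.7%). The 250 bases before the start are shown 5′ to 3′ for 4 genes that hold E2F letters and whose transcripts are described below, and for CCNB1, which holds 2 CCAAT matches and no E2F letters. Capitals mark matches to any of the 3 kinds of letters on either strand, and no matches shown share a base. The windows are chr20:33686386-33686635 (minus strand) for E2F1, chr1:23531234-23531483 (minus) for E2F2, chr20:37095998-37096247 (minus) for RBL1, chr3:48188418-48188667 (minus) for CDC25A and chr5:69166900-69167149 (plus) for CCNB1.
E2F1: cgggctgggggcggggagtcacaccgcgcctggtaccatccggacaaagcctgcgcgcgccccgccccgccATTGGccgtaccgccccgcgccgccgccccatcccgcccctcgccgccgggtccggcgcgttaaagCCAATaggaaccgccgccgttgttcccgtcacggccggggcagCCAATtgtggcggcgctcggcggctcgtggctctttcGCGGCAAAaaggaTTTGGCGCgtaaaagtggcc
E2F2: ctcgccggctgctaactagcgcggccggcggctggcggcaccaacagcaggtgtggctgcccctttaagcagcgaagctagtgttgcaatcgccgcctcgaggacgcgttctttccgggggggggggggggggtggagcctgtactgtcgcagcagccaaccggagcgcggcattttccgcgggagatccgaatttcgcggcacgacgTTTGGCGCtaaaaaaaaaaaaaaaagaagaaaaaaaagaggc
RBL1: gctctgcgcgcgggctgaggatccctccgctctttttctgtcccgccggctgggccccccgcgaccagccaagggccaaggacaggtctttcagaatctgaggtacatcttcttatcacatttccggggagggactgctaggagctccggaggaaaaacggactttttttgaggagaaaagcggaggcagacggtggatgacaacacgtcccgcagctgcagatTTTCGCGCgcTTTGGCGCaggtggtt
CDC25A: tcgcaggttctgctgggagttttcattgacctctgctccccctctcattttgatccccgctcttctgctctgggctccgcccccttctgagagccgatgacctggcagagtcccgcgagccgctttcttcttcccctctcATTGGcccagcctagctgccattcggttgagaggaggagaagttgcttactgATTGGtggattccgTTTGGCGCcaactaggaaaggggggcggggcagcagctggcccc
CCNB1: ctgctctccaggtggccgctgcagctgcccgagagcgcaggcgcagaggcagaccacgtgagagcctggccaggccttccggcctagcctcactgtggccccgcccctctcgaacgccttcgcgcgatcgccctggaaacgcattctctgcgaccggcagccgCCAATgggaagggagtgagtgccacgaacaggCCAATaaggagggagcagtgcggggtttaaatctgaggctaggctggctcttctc

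RBL1 carries a pair of E2F matches within 30 bases of its start, at -26 to -19 and at -16 to -9. E2F1 carries 1 on each strand, at -33 to -26 and at -20 to -13. E2F2 has TTTGGCGC at -42 to -35, and CDC25A has the same 8 letters at -44 to -37. A match describes letters only; whether any factor bound there was not measured.

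Against shScramble, 14 of the 36 genes tested were raised and 1 was lowered in the guide 2 libraries. Calls were made at an edgeR adjusted p under 0.05 and a change of at least 1.5-fold. Over all 19278 genes tested, 8.85% were raised and 20.4% lowered, so the share of raised genes (14 of 36) was above that background and the share of lowered genes (1 of 36) below it. The median log2 fold change of the 36 was 0.38, beside -0.04 over all genes, and 28 lay above 0. In the libraries labelled guide 1, 18 were raised and 1 lowered, where 21.2% and 16.5% of all genes were, and the median was 0.62 beside -0.02. Both comparisons use the same 3 shScramble libraries. When counts were scaled by library size alone, the median of all genes with guide 2 moved from -0.04 to -0.19, all genes called changed from 1706 raised and 3939 lowered to 1012 and 4865, and the members called to 10 raised and 3 lowered. The calls of E2F3, TFDP1, CCNE2 and RBL1 were then lost, and CDC25C and E2F5 were called lowered. In RNA from whole cultures, a change in the share of cells in a phase and a change in RNA per cell cannot be told apart.

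**Figure D1:**
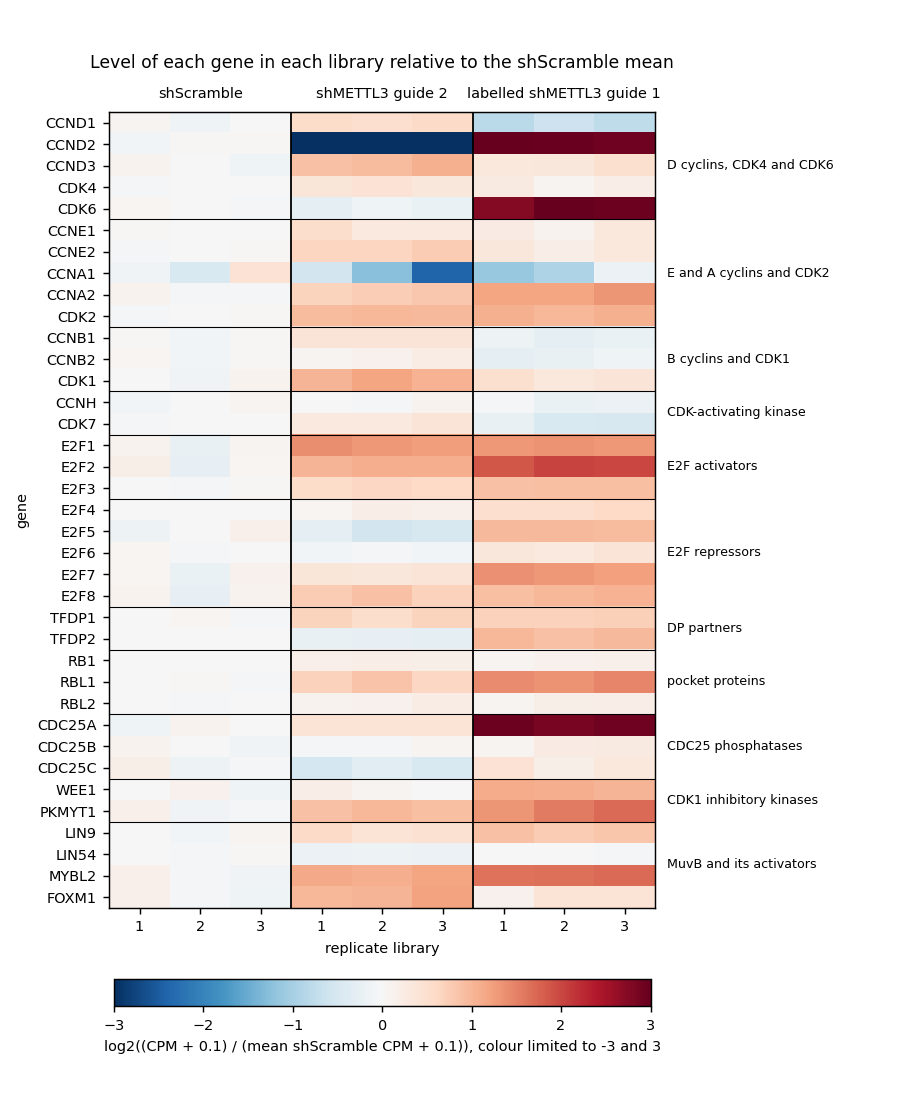
Level of each of the 37 genes in each of the 9 libraries, as log2 of CPM plus 0.1 relative to the shScramble mean, with genes in rows by role and replicate libraries in columns. Red is higher and blue lower than shScramble. The E2F activators are red in all 6 shMETTL3 libraries, and CCND2 is blue in the 3 guide 2 libraries and red in the 3 labelled guide 1.

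**Figure D2:**
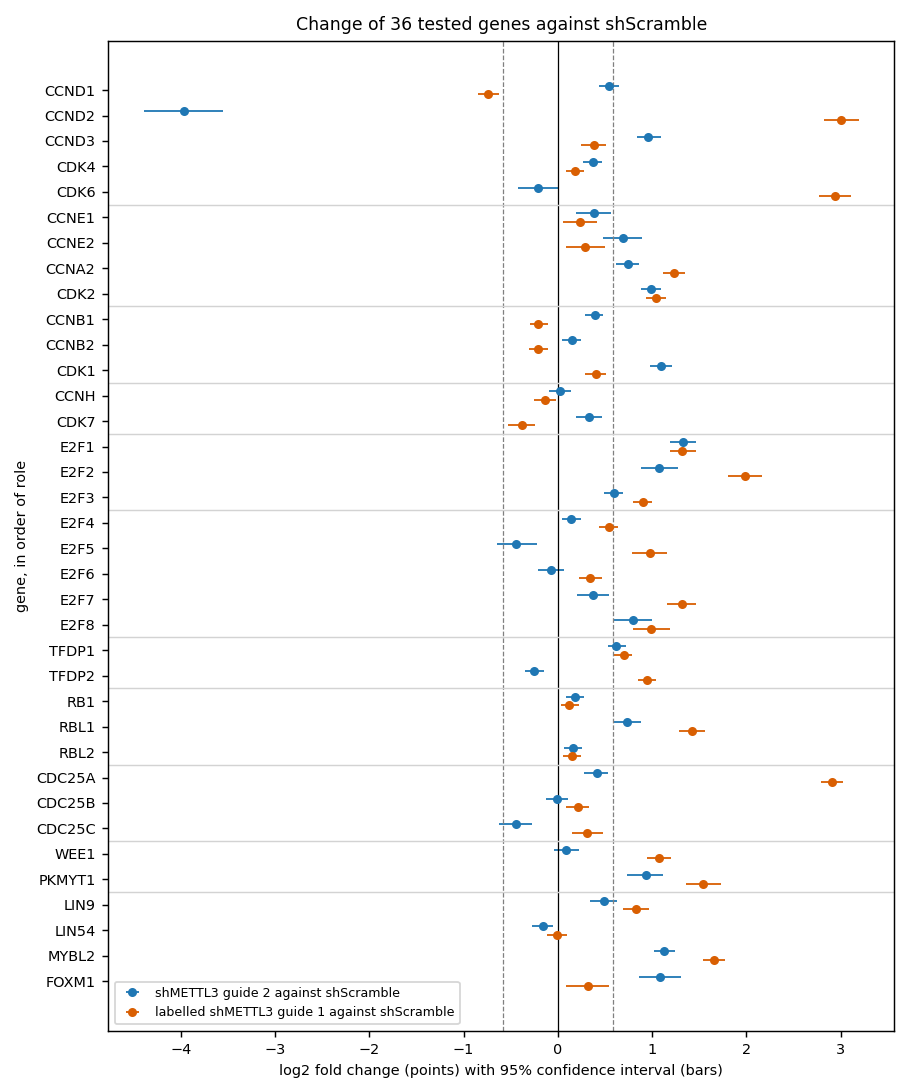
Log2 fold change against shScramble (points) with 95% confidence intervals (bars) for the 36 genes tested, with guide 2 in blue and the libraries labelled guide 1 in orange. Dashed lines mark 1.5-fold either way. CCND2 stands at -3.97 and 3.00, CDK6 at -0.21 and 2.94, CDC25A at 0.41 and 2.91, while the 2 points of E2F1 lie at 1.33 and 1.32.

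The D cyclins, which start the cycle in response to growth signals, went different ways. CCND2 (ENSG00000118971, chr12:4273772-4305350, GRCh38) was counted 164, 186 and 133 times in shScramble, 13, 6 and 6 times with guide 2, and 1356, 1247 and 1301 times in the libraries labelled guide 1. These counts are 5.31, 5.84 and 5.83 CPM, then 0.564, 0.239 and 0.272 CPM, then 47.6, 44.9 and 43.5 CPM. The 3 groups did not overlap, with guide 2 far below and the libraries labelled guide 1 far above shScramble. CCND2 was the only member called in opposite directions, lowered 15.7-fold with guide 2 (log2 fold change -3.97, SE 0.205, edgeR adjusted p = 2.79e-15) and raised 8.02-fold in the libraries labelled guide 1 (3.00, SE 0.0889, edgeR adjusted p = 2.62e-21).

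CCND1 (cyclin D1, chr11:69641087-69654474) was the most abundant D cyclin per length in shScramble, at 35.8 ± 2.61 RPKM (RPKM, which is CPM divided by exon length in kilobases; SD, n = 3), beside 6.41 ± 0.482 for CCND3 and 0.791 ± 0.0426 for CCND2. It was at 184, 159 and 175 CPM in shScramble, 254, 246 and 257 CPM with guide 2, and 98.3, 113 and 101 CPM in the libraries labelled guide 1. All guide 2 libraries were above and all libraries labelled guide 1 below the shScramble range. CCND1 fell in the libraries labelled guide 1 (-0.74, SE 0.0544, edgeR adjusted p = 2.95e-12). With guide 2 its log2 fold change of 0.54 (1.46-fold, edgeR adjusted p = 1.68e-09) was just short of the 1.5-fold limit, and it was called (0.60) without shScramble replicate 1. CCND1 shares 10.3% of its exon bases with LTO1 on the other strand, and whether the counting used strand is not given in the sources used here. CCND3 was at 39.8, 37.6 and 34.2 CPM in shScramble, 68.7, 72 and 77.6 CPM with guide 2, and 46.7, 47.0 and 51.7 CPM in the libraries labelled guide 1, again with no overlap. CCND3 rose with guide 2 (0.96, SE 0.0616, edgeR adjusted p = 2.33e-13), and its value in the libraries labelled guide 1 was 0.38 (SE 0.0622), short of the fold limit. Summed per length, the 3 D cyclins came to 43 ± 2.73 RPKM in shScramble, 64.9 ± 1.62 with guide 2 and 36.2 ± 1.35 in the libraries labelled guide 1.

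CDK4 and CDK6 are the kinases that D cyclins activate, and CDK4 was the main one here, at 35.3 ± 0.466 RPKM in shScramble beside 0.654 ± 0.0246 for CDK6. CDK6 (chr7:92604921-92836594) was at 8.31, 8.04 and 7.71 CPM in shScramble, 6.5, 7.34 and 6.98 CPM with guide 2, and 54.7, 67.6 and 62.7 CPM in the libraries labelled guide 1. Guide 2 lay slightly below shScramble, while every library labelled guide 1 was several times higher. CDK6 rose 7.66-fold there (2.94, SE 0.0819, edgeR adjusted p = 7.27e-22) and did not pass the test with guide 2 (-0.21, SE 0.104, edgeR adjusted p = 0.0812). CDK4 was not called in either comparison, with log2 fold changes of 0.37 and 0.18, and shares 43.2% of its exon bases with TSPAN31 on the other strand. The ratio of CDK4 to CDK6 per length was 54.1 ± 2.71 in shScramble, 80.9 ± 3.78 with guide 2 and 8.08 ± 1.39 in the libraries labelled guide 1.

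Among the genes that act at the start of S phase, CDK2 and CCNA2 rose in both comparisons. CDK2, the partner of E and A cyclins, was at 30.8, 31.3 and 32.4 CPM in shScramble, 61.3, 63.3 and 62.4 CPM with guide 2, and 65.7, 62.5 and 66.2 CPM in the libraries labelled guide 1. Both shMETTL3 groups lay clear of shScramble and overlapped each other, at log2 fold changes of 0.99 (SE 0.053, edgeR adjusted p = 6.58e-15) and 1.04 (SE 0.0524, edgeR adjusted p = 3.37e-16). The direct difference between the hairpins was -0.06, with a 95% interval from -0.16 to 0.05. CCNA2 (cyclin A2) was at 35.8, 32.3 and 32.4 CPM, then 53.6, 56.1 and 58.4 CPM, then 76.3, 76.6 and 83.7 CPM, and no groups overlapped. Its changes were 0.74 (SE 0.0587, edgeR adjusted p = 1.83e-11) and 1.23 (SE 0.0572, edgeR adjusted p = 5.95e-17). CDK2 shares 16.8% of its exon bases with PMEL and another gene on the other strand, and CCNA2 9.08% with EXOSC9, which itself went from 29.9 ± 1.63 CPM in shScramble to 84.5 ± 3.99 CPM in the libraries labelled guide 1.

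The E cyclins, which carry cells past the G1 restriction point with CDK2, were at lower levels. CCNE2 rose with guide 2 (0.69, SE 0.0991, edgeR adjusted p = 1.03e-06; 7.44 ± 0.174 to 12 ± 0.55 CPM) and shares 37.1% of its exon bases with INTS8 and another gene on the other strand. CCNE1 was not called, at 0.38 and 0.23, nor was CCNE2 in the libraries labelled guide 1, at 0.29. CCNA1, the cyclin A of the germ line, was nearly silent: 12, 9 and 14 reads in shScramble, 6, 3 and 0 with guide 2, and 4, 5 and 11 in the libraries labelled guide 1. It entered no main test. With no filter on low counts its log2 fold change with guide 2 was -1.65 (edgeR adjusted p = 0.0382), which is past both limits. It also passed the usual filter in 8 of the fits that left out 1 library, with log2 fold changes from -2.63 to -1.12, and in those was called in 5 and not called without shScramble replicate 3 (edgeR adjusted p = 0.118), guide 2 replicate 2 (0.0773) or guide 2 replicate 3 (0.141).

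The B cyclins and CDK1, the engine of mitosis, were among the most abundant members. CCNB1 (cyclin B1, chr5:69167010-69178245) had the highest level per length of all 37 in shScramble, 70.9 ± 3.46 RPKM, and CCNB2 was at 34.3 ± 1.85. CCNB1 was at 186, 171 and 187 CPM in shScramble, 238, 236 and 237 CPM with guide 2, and 163, 149 and 159 CPM in the libraries labelled guide 1. Guide 2 was above and the libraries labelled guide 1 were below shScramble without overlap, by 0.39 and -0.21, both short of the fold limit. CDK1 (chr10:60778331-60794852) was at 102, 94.4 and 109 CPM in shScramble, 208, 230 and 211 CPM with guide 2, and 143, 126 and 133 CPM in the libraries labelled guide 1. The groups did not overlap, and the guide 2 libraries were highest. CDK1 rose 2.13-fold with guide 2 (1.09, SE 0.0554, edgeR adjusted p = 7.89e-15), and its value in the libraries labelled guide 1 was 0.40. CCNB2 was at 0.15 and -0.21, neither called.

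The CDK-activating kinase, CDK7 with cyclin H (CCNH), phosphorylates the activation loop of the other CDKs and is also part of the general transcription factor TFIIH. CCNH was at 63.0, 65.8 and 69.9 CPM in shScramble, 66.3, 64.7 and 70.8 CPM with guide 2, and 64.2, 58.1 and 58.3 CPM in the libraries labelled guide 1. Both shMETTL3 groups overlapped shScramble, and the guide 2 libraries lay just above those labelled guide 1. Neither gene was called against shScramble, CCNH at 0.02 and -0.14 and CDK7 at 0.33 and -0.38.

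All 3 activator E2Fs, which turn on the genes of DNA replication, rose in both comparisons. E2F1 (chr20:33675683-33686404) was at 30.3, 24.1 and 29.6 CPM in shScramble, 74.2, 69.6 and 66.9 CPM with guide 2, and 69.6, 71.3 and 68.9 CPM in the libraries labelled guide 1. All 6 shMETTL3 libraries were more than double the highest shScramble library, and the hairpins overlapped. E2F1 rose 2.51-fold (1.33, SE 0.0672, edgeR adjusted p = 7.97e-15) and 2.5-fold (1.32, SE 0.0665, edgeR adjusted p = 1.73e-15), with a direct difference of 0.01 and a 95% interval from -0.12 to 0.13. E2F2 (chr1:23506430-23531220) was at 9.28, 6.97 and 8.54 CPM, then 16.8, 17.6 and 17.6 CPM, then 30.2, 34.2 and 33.3 CPM. Its 3 groups were separate, in that order, at 1.07 (SE 0.0949, edgeR adjusted p = 1.55e-10) and 1.98 (SE 0.0885, edgeR adjusted p = 2.48e-17). E2F3 went from 42 ± 1.16 CPM to 63.2 ± 1.41 and 78.4 ± 0.675 CPM. Its change with guide 2 (0.59, SE 0.0502, edgeR adjusted p = 7.05e-11) sat at the fold limit and the call was lost without shScramble replicate 2 (0.57) or guide 2 replicate 2 (0.58), whereas 0.90 in the libraries labelled guide 1 kept its call in every leave-one-out fit. Summed per length, the activators were at 20.8 ± 1.78 RPKM in shScramble, 43.5 ± 1.19 with guide 2 and 49.1 ± 0.814 in the libraries labelled guide 1.

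Of the repressor E2Fs, E2F5 and E2F7 differed between the hairpins past the limits, and E2F4, E2F6 and E2F8 did not. E2F4, the main E2F of resting cells and the most abundant E2F per length in shScramble at 18.1 ± 0.1 RPKM, was at 65.2, 65.2 and 64.5 CPM in shScramble, 67.8, 74.9 and 71.8 CPM with guide 2, and 92.6, 92.2 and 98.1 CPM in the libraries labelled guide 1. The 3 groups were separate, but neither change (0.14 and 0.54) reached the fold limit. The ratio of E2F1 to E2F4 per length went from 0.617 ± 0.0761 in shScramble to 1.41 ± 0.137 with guide 2 and 1.06 ± 0.0529 in the libraries labelled guide 1. E2F7, an atypical repressor that binds DNA without a DP partner and is itself an E2F target, was at 14.9, 12.5 and 15.6 CPM in shScramble, 18.6, 18.2 and 18.8 CPM with guide 2, and 37.3, 35.5 and 33.8 CPM in the libraries labelled guide 1. E2F7 rose in the latter (1.32, SE 0.0771, edgeR adjusted p = 1.04e-14) and was not called with guide 2 (0.37). E2F8, the other atypical member, was at 9.64, 7.57 and 9.68 CPM, then 15.2, 16.7 and 14.5 CPM, then 16.9, 17.9 and 18.5 CPM, and rose in both (0.80 and 0.99, SE 0.0993 and 0.0961). E2F5, a repressor that acts with RBL2, was at 10.2 ± 1.07 CPM in shScramble, 7.48 ± 0.75 with guide 2 and 19.9 ± 0.108 in the libraries labelled guide 1. E2F5 rose in the libraries labelled guide 1 (0.98, SE 0.0909, edgeR adjusted p = 1.99e-10), with -0.44 in guide 2, and shares 18.6% of its exon bases with genes on the other strand. E2F6, which represses with Polycomb proteins, was at -0.07 and 0.34.

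TFDP1 and TFDP2 encode the DP proteins that E2F1 to E2F6 need to bind DNA. TFDP1 was at 89.1, 91.2 and 84.1 CPM in shScramble, 140, 128 and 139 CPM with guide 2, and 142, 142 and 144 CPM in the libraries labelled guide 1. Both shMETTL3 groups were above shScramble, and TFDP1 rose in both (0.62, SE 0.0477, edgeR adjusted p = 8.53e-12, and 0.70, SE 0.0474, edgeR adjusted p = 2.87e-13). TFDP2 went from 66.3 ± 0.712 CPM to 55.7 ± 1.4 CPM with guide 2 (-0.25, not called) and 128 ± 5.48 CPM in the libraries labelled guide 1, where it rose (0.95, SE 0.0472, edgeR adjusted p = 2.73e-16).

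Of the pocket proteins, RBL1, an E2F target that is scarce in resting cells, was the one called. RBL1 (chr20:36996349-37095995) was at 17.7, 17.9 and 17.2 CPM in shScramble, 28.4, 32.1 and 27.2 CPM with guide 2, and 47.5, 45.3 and 48.8 CPM in the libraries labelled guide 1. The groups were separate in that order, with rises of 0.73 (SE 0.0708, edgeR adjusted p = 9.16e-10) and 1.42 (SE 0.0676, edgeR adjusted p = 1.07e-16). RBL2, the most abundant per length in shScramble (11.2 ± 0.233 RPKM), was at 82.5, 79.9 and 83.1 CPM, then 88.1, 90.2 and 95.8 CPM, then 86.7, 92.7 and 93.3 CPM, and at 0.16 and 0.15 was not called. It shares 18.2% of its exon bases with AKTIP and another gene on the other strand, and AKTIP was at -0.29 and -0.72. RB1, the retinoblastoma tumour suppressor, was at 0.18 and 0.12, also not called, from 61.0 ± 0.639 CPM in shScramble to 69.3 ± 1.34 and 66.4 ± 1.84 CPM. The ratio of RB1 to RBL1 per length therefore went from 3.34 ± 0.102 to 2.3 ± 0.173 with guide 2 and 1.36 ± 0.0633 in the libraries labelled guide 1.

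**Figure D3:**
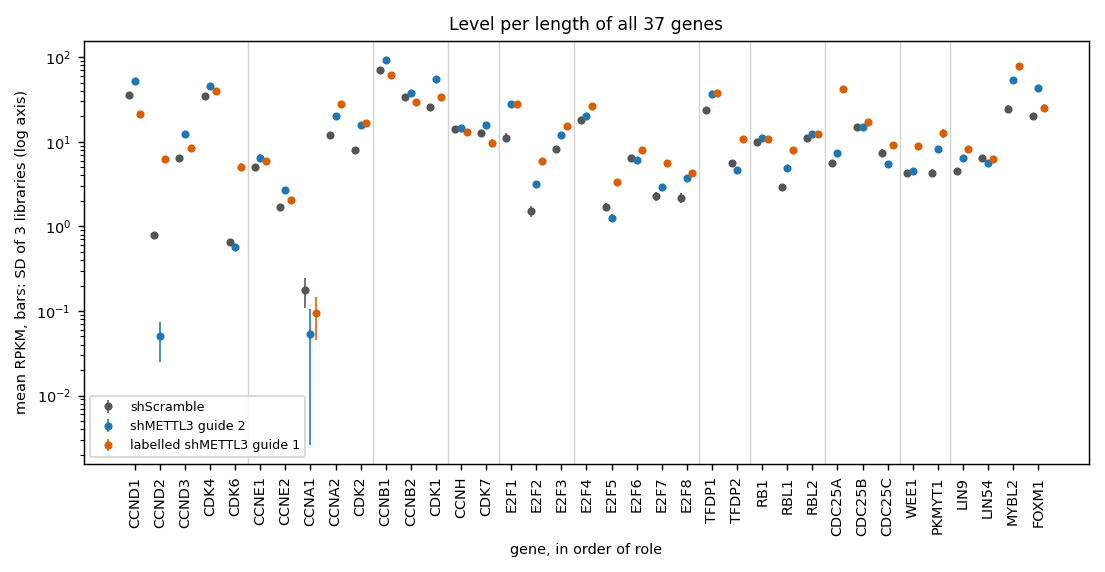
Mean level per length (RPKM, log axis) of all 37 genes in the 3 groups, with bars for the SD of 3 libraries. CCNB1 is the highest in shScramble at 70.9 RPKM and CCNA1 the lowest, and CCND2 spans from 0.0501 RPKM with guide 2 to 6.33 RPKM in the libraries labelled guide 1.

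CDC25A, the phosphatase that activates CDK2 at the entry to S phase, gave one of the widest separations. CDC25A (chr3:48157146-48188402) was at 21.0, 24.8 and 23.3 CPM in shScramble, 30.5, 30.6 and 30.5 CPM with guide 2, and 178, 167 and 174 CPM in the libraries labelled guide 1. Guide 2 was above shScramble but short of the fold limit (0.41, SE 0.0609), and the libraries labelled guide 1 rose 7.51-fold (2.91, SE 0.0561, edgeR adjusted p = 3.36e-25). CDC25B and CDC25C, which act on CDK1 at mitosis, were not called in either comparison. CDC25B, the most abundant of the 3 in shScramble, was at 69.3, 64.1 and 60.5 CPM there, 62.9, 62.4 and 67.9 CPM with guide 2, and 68.5, 77.2 and 78.4 CPM in the libraries labelled guide 1. Both shMETTL3 groups overlapped shScramble, and the guide 2 libraries lay just below those labelled guide 1. CDC25C was at -0.44 and 0.31, from 22.7 ± 2.57 CPM to 16.7 ± 1.04 and 28.3 ± 2.34 CPM.

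PKMYT1 and WEE1 encode the kinases that hold CDK1 inactive. PKMYT1 was at 24.4, 20.1 and 20.9 CPM in shScramble, 40.1, 43.3 and 41.1 CPM with guide 2, and 54.8, 64.9 and 71.2 CPM in the libraries labelled guide 1. Its groups were separate, at 0.93 (SE 0.0914, edgeR adjusted p = 1.27e-07) and 1.54 (SE 0.0883, edgeR adjusted p = 3.98e-11). PKMYT1 shares 31.6% of its exon bases with KREMEN2 and PAQR4 on the other strand. PAQR4 was at 17 ± 2.51 CPM in shScramble, 30.9 ± 1.31 with guide 2 and 26.6 ± 2.91 in the libraries labelled guide 1, and KREMEN2 at 12.1 ± 0.888, 23.2 ± 1.28 and 9.52 ± 0.903 CPM. Their part in the PKMYT1 counts was not tested. WEE1 rose in the libraries labelled guide 1 (1.07, SE 0.0606, edgeR adjusted p = 4.41e-15; 39.5 ± 3.58 to 83.4 ± 2.68 CPM) and did not pass the test with guide 2 (0.09, 42.2 ± 2.91 CPM, edgeR adjusted p = 0.214).

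Of the activators of MuvB, MYBL2 rose in both comparisons and FOXM1 with guide 2. Of its core subunits, LIN9 rose in the libraries labelled guide 1 and the DNA-binding LIN54 was not called. MYBL2 (B-MYB, an E2F target, chr20:43667019-43716496) was at 76.4, 65.6 and 64.1 CPM in shScramble, 150, 146 and 155 CPM with guide 2, and 211, 216 and 223 CPM in the libraries labelled guide 1. The 3 groups were separate in that order, at 1.13 (SE 0.0548, edgeR adjusted p = 1.08e-15) and 1.66 (SE 0.0545, edgeR adjusted p = 4.19e-20). FOXM1, the factor of G2 and mitosis, was at 110, 96.8 and 91.0 CPM in shScramble, 198, 202 and 230 CPM with guide 2, and 108, 131 and 133 CPM in the libraries labelled guide 1. Guide 2 was above both other groups, and the libraries labelled guide 1 overlapped shScramble. FOXM1 rose with guide 2 (1.08, SE 0.0997, edgeR adjusted p = 8.42e-06) and was at 0.32 in the libraries labelled guide 1. It shares 15.9% of its exon bases with ITFG2 on the other strand, which was at 26.6 ± 0.984 CPM in shScramble and 17.5 ± 0.813 CPM with guide 2. LIN9 was at 0.49 with guide 2, not called, and rose in the libraries labelled guide 1 (0.83, SE 0.0677, edgeR adjusted p = 1.21e-11). LIN54 was at -0.16 and -0.01.

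**Figure D4:**
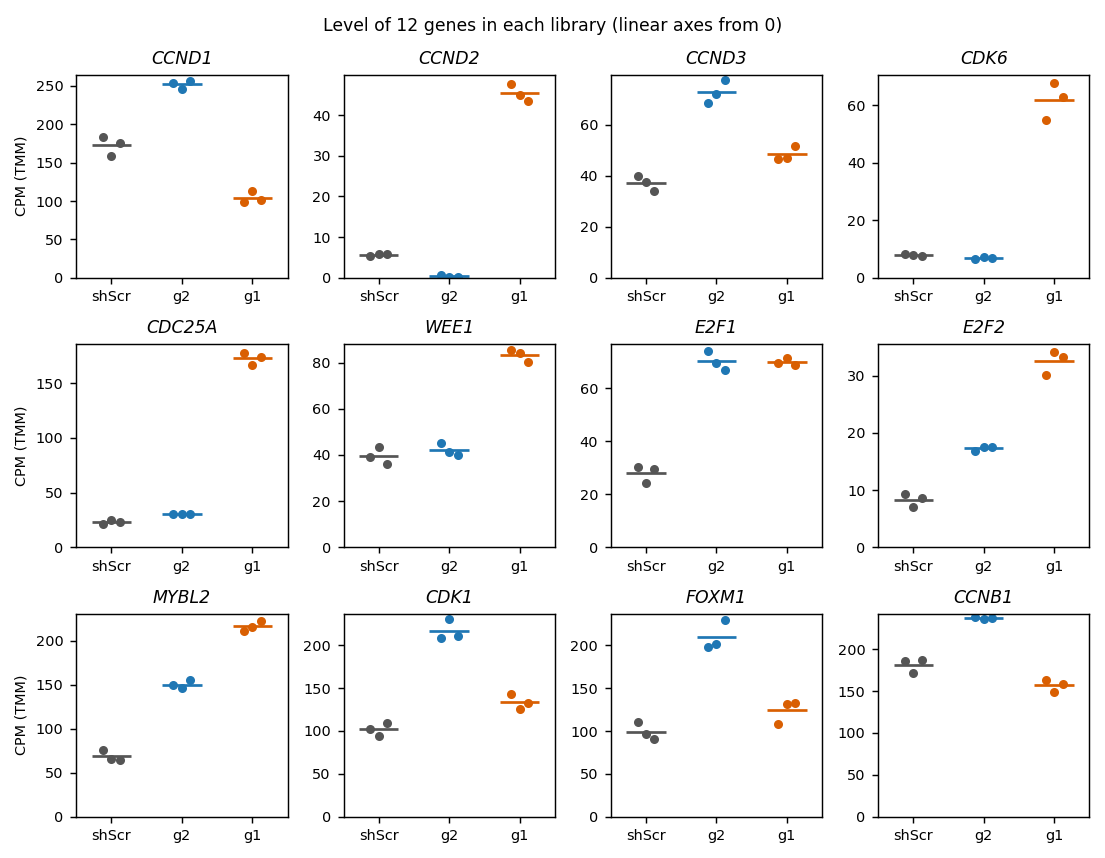
CPM of 12 of the genes in each library (points) with group means (lines), on linear axes from 0, for shScramble (shScr), shMETTL3 guide 2 (g2) and the libraries labelled guide 1 (g1). E2F1 is near 70 CPM in both shMETTL3 groups, CDC25A, CDK6 and WEE1 stand out in the libraries labelled guide 1, and CDK1 and FOXM1 are highest with guide 2.

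The hairpins were then compared directly, guide 2 against the libraries labelled guide 1, in the same fit. Of the 36 genes, 5 were higher and 11 lower with guide 2, where 19.1% of all genes were higher and 28.2% lower, so neither share was far from its background. The higher 5 were CCND1 (1.28, SE 0.0546, edgeR adjusted p = 1.39e-17), FOXM1 (0.77), CDK7 (0.71), CDK1 (0.69) and CCNB1 (0.59). The calls of CDK7, CDK1 and CCNB1 were lost under scaling by library size alone (0.58, 0.56 and 0.46), where MYBL2 (-0.67) and CCNA2 (-0.63) were called lower, and that of CCNB1 also without guide 1 replicate 2 (0.56). The lower 11 were led by CCND2 (-6.97, SE 0.148, edgeR adjusted p = 8.08e-25), CDK6 (-3.15, SE 0.0861, edgeR adjusted p = 2.01e-22) and CDC25A (-2.50, SE 0.0552, edgeR adjusted p = 1.92e-24). E2F5 (-1.41) and TFDP2 (-1.20) followed, then WEE1 (-0.98), E2F7 (-0.94), E2F2 (-0.91), CDC25C (-0.76), RBL1 (-0.69) and PKMYT1 (-0.62), the last of which lost its call without guide 1 replicate 3 (-0.53). CCND3, at 0.58, was just short of the fold limit and was called when any 1 of several libraries was left out, shScramble replicate 1 among them (0.59). Besides E2F1 and CDK2, the interval of the difference stayed within 0.2 of 0 for RB1 (-0.04 to 0.16), RBL2 (-0.09 to 0.11) and TFDP1 (-0.17 to 0.03).

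Genes that the RB and E2F pathway acts on were read from lists of other genes. Of 28 E2F target genes of G1 and S phase, 24 rose with guide 2 and none fell, with a median of 1.08, and 26 rose in the libraries labelled guide 1 with a median of 1.5, where 8.85% and 21.2% of all genes rose. With guide 2 the leading ones were MCM10 (1.84, a replication initiation factor), RRM2 (1.65, the regulated subunit of ribonucleotide reductase) and MCM7 (1.49, a subunit of the replicative helicase). RRM2 went from 33.9, 29.4 and 32.1 CPM in shScramble to 97.2, 99.3 and 104 CPM with guide 2 and 80.2, 84.3 and 89.2 CPM in the libraries labelled guide 1. In the libraries labelled guide 1 the leaders were CLSPN (2.34, the checkpoint mediator claspin), MCM3 (2.26) and MCM4 (2.24), both helicase subunits. MCM4 was at 63.2, 62.6 and 63.0 CPM in shScramble, 113, 122 and 123 CPM with guide 2, and 286, 307 and 300 CPM in the libraries labelled guide 1. Of the 28, TK1 alone lay below 0 in the libraries labelled guide 1 (-0.41, not called), at 84.2 CPM beside 112 CPM in shScramble. TK1 rose with guide 2 (1.36).

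Target genes of MuvB, B-MYB and FOXM1 are expressed in G2 and mitosis. Of 29, 5 rose with guide 2 (median 0.35) and 10 in the libraries labelled guide 1 (median 0.45), where 8.85% and 21.2% of all genes rose, and none was lowered in either comparison. BUB1B, a kinase of the spindle checkpoint, rose with guide 2 (0.91) and was at 0.36 in the libraries labelled guide 1, as ECT2 (0.75 and -0.10) and CDC20 (0.64 and 0.22) did. TPX2, a spindle factor, rose in both (0.61 and 1.27), and AURKB (1.61) and the mitotic kinesin KIF11 (1.11) rose in the libraries labelled guide 1.

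Of 8 CDK inhibitor genes, 1 rose and 3 fell with guide 2, where 8.85% and 20.4% of all genes did. Under the label guide 1, 3 of them rose and 1 fell, where 21.2% and 16.5% of all genes did. CDKN2A, which encodes p16 and p14ARF, was at 16.4, 18.4 and 21.9 CPM in shScramble, 8.28, 7.61 and 6.44 CPM with guide 2, and 197, 152 and 177 CPM in the libraries labelled guide 1. Like CCND2 it was called in opposite directions (-1.33, edgeR adjusted p = 0.000191, and 3.22, edgeR adjusted p = 3.58e-08). CDKN1A (p21) fell in both, from 170, 160 and 177 CPM to 102, 98.4 and 105 CPM (-0.73) and to 97.6, 97.6 and 94.5 CPM (-0.81). CDKN2C (p18) rose in both (0.68 and 0.89). CDKN2B, at 2.87 CPM in shScramble, was also called in opposite directions (-1.58 and 1.34).

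Of 29 other cyclin and CDK genes tested, many of which act in transcription, 1 rose and 5 fell with guide 2 (median -0.12), where 8.85% and 20.4% of all genes did. In the libraries labelled guide 1, 4 rose and 2 fell (median -0.11), where 21.2% and 16.5% of all genes did. CCNL1, a cyclin of splicing-linked CDK11, was at 111, 110 and 115 CPM in shScramble and fell to 44.3, 47.8 and 43.9 CPM with guide 2 (-1.30), while it was at 90.2, 98.1 and 91.6 CPM in the libraries labelled guide 1 (-0.26). CDK11A fell in both (-1.08 and -1.13), CDK14 rose with guide 2 (0.82), and CDK18 (1.48) and CDK17 (0.66) rose in the libraries labelled guide 1. CCNJ, scarce in shScramble (1.77 CPM), was called in opposite directions (-1.64 and 4.04), as was CCNB3 (1.43 CPM, -1.01 and 0.89). CDK11A has a near-identical copy in CDK11B, so the division of reads between them is uncertain. Of 7 MuvB, CDK-activating kinase and E2F partners outside the members, 1 rose with guide 2 and 3 in the libraries labelled guide 1 (8.85% and 21.2% of all genes), RBBP4 (0.63) and MYBL1 (0.67) among them. Of 10 cyclin degradation genes, 1 rose with guide 2, where 8.85% of all genes did. In the libraries labelled guide 1, 4 rose and 1 fell, where 21.2% and 16.5% of all genes did. SKP2, the F-box protein that marks p27 for degradation, rose in both (0.72 and 0.92). FBXO5 (1.52), an inhibitor of the anaphase-promoting complex, and BTRC (0.95) rose in the libraries labelled guide 1.

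**Figure D5:**
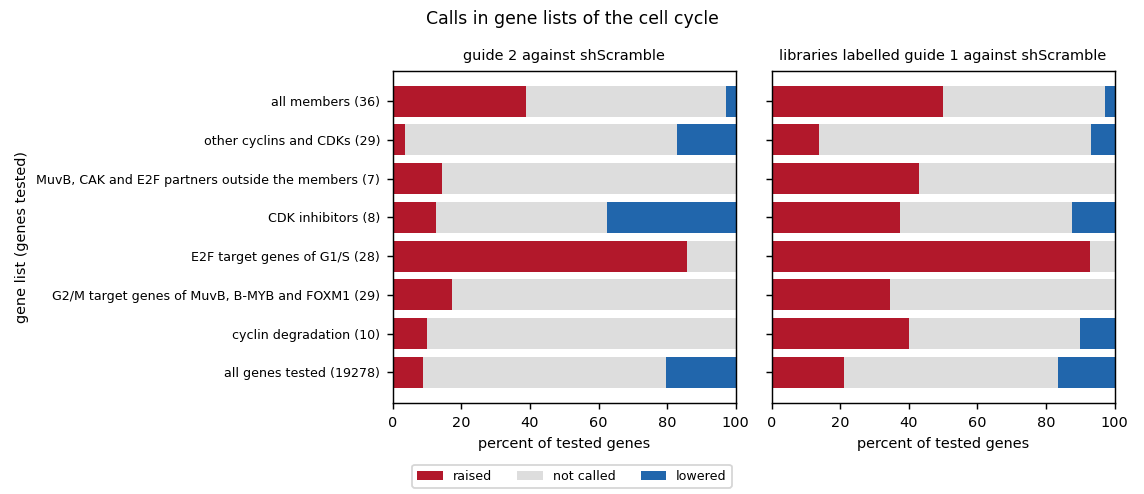
Percent of tested genes raised (red), not called (grey) and lowered (blue) against shScramble in each list, with the number tested in parentheses and all 19278 genes at the bottom. The list of E2F targets is mostly red in both panels (24 and 26 of 28), and that of other cyclins and CDKs mostly grey.

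Set beside the promoter letters, 6 of the 9 members with a window that were called raised with guide 2 held E2F letters, and 1 of the 18 others. Among the 6 were E2F3, TFDP1 and RBL1, whose guide 2 calls were lost under scaling by library size alone. In the libraries labelled guide 1 these were 6 of 12 and 1 of 15. The 18 and the 15 include CCNA1, which was not tested. Windows were at hand for 27 genes only, and these counts are a description with no test.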

How the data were processed

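RNA from 9 LNCaP:C4-2 libraries was sequenced as paired ends. Per the labels and the study's methods, the authors trimmed adapters with Trim Galore (cutadapt, FastQC), aligned to GRCh38 with STAR and counted reads per Ensembl gene with featureCounts. The strand setting and versions are not given in the sources used here. The deposited values were raw gene counts, with exon lengths. Symbols were matched by Ensembl ID for 56558 of 60675 genes (93.2%).

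Counts were fitted with edgeR 4.0.16 (R 4.3.3; filterByExpr with minimum count 10 and total 15, TMM, robust quasi-likelihood F test, 1 coefficient per group over all 9 libraries, Benjamini-Hochberg adjustment over 19278 genes). The 1.5-fold and adjusted p limits are those of the study's methods, which used DESeq2. SE is the log2 fold change divided by the square root of F. CPM used TMM-scaled library sizes. The script was tested on simulated data. Pseudogene copies held at most 0.534% of a member's counts.

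The members and gene lists were chosen with earlier results of these data known. CPM in every library was given for members called in opposite directions, the 10 with the largest called changes in each comparison against shScramble, and the member with the highest shScramble RPKM in each role. From the other lists, up to 3 called genes with the largest changes and at least 5 CPM in shScramble were named. CCNJ, CCNB3, CDKN2B and TK1 were named outside this rule, after values were seen. The exon neighbours and ratios were chosen after values were seen. Promoter windows used the first listed RefSeq start, within 5000 bases of the counted gene's start. Alternatives were DESeq2 1.42.0, its size factors, library size alone, other filters, the 6 libraries compared, a replicate block, glmTreat, no fold limit, and leaving out each library. One further list of marker genes is not reported here.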

Additional observations from a re-analysis of the deposited data

Results flagged for a closer look

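The 2 shMETTL3 groups, each compared above with the same shScramble libraries, differed directly past the limits for 16 of the 36 genes tested. The values below are edgeR log2 fold changes of guide 2 against the libraries labelled guide 1. With guide 2, 5 genes were higher and 11 lower, where 19.1% of all genes were higher and 28.2% lower, so neither share was far from its background. The hairpin cannot be told apart from any other difference between the cells of the 2 groups. The D cyclins and their kinase CDK6 held 3 of these, CCND1 at 1.28, CCND2 at -6.97 and CDK6 at -3.15. Genes of mitotic entry held CCNB1 (0.59), CDK1 (0.69), FOXM1 (0.77), CDC25C (-0.76), WEE1 (-0.98) and PKMYT1 (-0.62). The E2F, DP and pocket protein genes held E2F2 (-0.91), E2F5 (-1.41), E2F7 (-0.94), TFDP2 (-1.20) and RBL1 (-0.69). CDC25A was at -2.50 and CDK7 at 0.71. METTL3 was at 16.3 ± 0.423 CPM with guide 2 and 29.7 ± 0.378 CPM in the libraries labelled guide 1, and its part in these differences was not tested.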

How the results depend on the processing

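Without the fold limit, calls came to 11910, 13188 and 14386 genes (guide 2, guide 1, guide 2 against guide 1) and 31, 35 and 29 members; glmTreat against 1.5-fold gave 3261 genes with guide 2 and 11 members raised, 1 lowered (without CCNE2, E2F3 and TFDP1), and ended the calls of CCNB1 and PKMYT1 between the hairpins. A mean of at least 1 CPM ended the guide 2 calls of E2F3 (0.54) and TFDP1 (0.58) and that of CCNB1 between the hairpins (0.55), and the 6 libraries compared alone that of E2F3 (0.58). DESeq2 gave 14 members raised and 1 lowered with guide 2, 18 and 1 with guide 1, and 6 and 11 between the hairpins. Over all 19278 genes these counts were 1716 and 3701, 4024 and 2892, and 3618 and 5307. Scaling by library size alone lost the guide 2 calls of E2F3 (0.44), TFDP1 (0.47), CCNE2 (0.54) and RBL1 (0.58) and added CDC25C and E2F5 as lowered (both -0.59). Leaving out 1 library gave 14 to 16 members called with guide 2, 19 with guide 1 and 15 to 17 between them. All genes called were then 5314 to 5789, 7040 to 7575 and 9074 to 9433. Signs turned only for uncalled values near 0. Under library size alone these were, for guide 2, CCNB2 (-0.0037), CCNH (-0.13), E2F4 (-0.011) and WEE1 (-0.058), and between the hairpins E2F1 (-0.13), RB1 (-0.076) and RBL2 (-0.13). With a mean of at least 1 CPM they were CCNH (-0.025), E2F1 (-0.037) and RBL2 (-0.036). CDC25B with guide 2 was 0.0012 by DESeq2, 0.00054 with its size factors and 0.012 unfiltered, and LIN54 with guide 1 was 0.003 and 0.0029 by the first 2. Leave-one-out ranges were -0.01 to 0.062 (CCNH), -0.053 to 0.048 (CDC25B), -0.028 to 0.048 (E2F1), -0.028 to 0.019 (LIN54) and -0.025 to 0.04 (RBL2). The causes were not tested.

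Deviations from the group means of same-numbered libraries correlated at -0.0981 to 0.0529. Libraries with different numbers were not correlated for comparison, so whether the replicate numbers pair the libraries is not settled. With the replicate block, members raised and lowered were 14 and 1, 18 and 1, and 6 and 11 (CCND3 gained, 0.59). Over all genes they were 1670 and 3824, 4043 and 3097, and 3653 and 5374.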
